A study of Homo sapiens with 10 samples.

Results

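The matrix genes followed here are the collagens, laminins and matrix proteins picked by gene symbol, that is every gene named as a collagen alpha chain (COL with 2 numbers around an A) or a laminin chain (LAMA, LAMB or LAMC), together with PXDN, ECM2, FN1, LOX, LOXL1, LOXL2, SPARC, NID1, NID2, FBN1 and FBN2. Of the 59453 genes in the count tables, 67 had such a symbol (44 collagens, 12 laminins and 11 others), and 43 of these had 50 or more reads in at least 1 library and are described. COL12A1 was the last gene inside that limit, with 52 reads in its highest library, and COL1A2 the first outside it, with 23. The 24 genes left out included COL6A5, LAMA1 and LAMB4, which had no read in any library, where 3 reads, or 0.134 CPM in WT clone 2, is the limit that a count of 0 allows.

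The libraries were made from HAP1, an adherent near-haploid human line that descends from the chronic myeloid leukaemia line KBM-7, grown in IMDM with foetal bovine serum. HAP1 clones were wild type (WT, clones 2 and 11), lacked the adenine DNA glycosylase MUTYH (MUTYH KO, clones 7 and 8), lacked the 8-oxoguanine DNA glycosylase OGG1 (OGG1 KO, clones 1 and 22) or lacked both (DKO, clones 4 and 14), each after CRISPR-Cas9 editing by a supplier. WT clones 2 and 11 were also sequenced 24 hours after 100 µM H2O2. Each library is from 1 clone, so a genotype is represented by 2 clones, and both DKO clones were derived from the same OGG1 KO clone, which by its product number is clone 22.

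Collagens are triple helices of 3 alpha chains. Fibrillar collagens form the cables of cartilage, bone and skin, whereas collagen IV forms the meshwork of basement membranes, in which laminin trimers of an alpha, a beta and a gamma chain are linked to it by nidogens. Lysyl oxidases crosslink collagen and elastin, and peroxidasin, the product of PXDN, crosslinks collagen IV. Chains are hydroxylated, folded and glycosylated in the endoplasmic reticulum, with the chaperone SERPINH1, before secretion.

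Total counts per library lay between 22225091 and 22674964. OGG1 mRNA had 27 reads in OGG1 KO clone 1 but 254 in clone 22, 215 and 223 in the DKO clones and 275 to 331 elsewhere. MUTYH mRNA had 101 and 83 reads in MUTYH KO and 106 and 50 in DKO against 105 and 89 in WT, so that reads of the targeted genes mark OGG1 KO clone 1 only. At the protein level, the study reported the knockouts as verified in every clone, using targeted mass spectrometry. Haematopoietic markers were near 0, although the line comes from a leukaemia: the 8 listed summed to 0.443 to 1.70 CPM (counts scaled to the TMM-normalized library total) in the 10 libraries and PTPRC, SPI1, MPO and CD68 had at most 3 reads in any. The 8 mesenchymal markers summed to 375.6 to 755.4 CPM and the 8 epithelial markers to 49.8 to 106.6 CPM, with CDH1 and KRT19 at no more than 3 reads. In bulk RNA, fewer cells that express a gene and less RNA per cell cannot be told apart.

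Between genes, levels were compared per length, as TMM-normalized CPM per kb of exon (RPKM), over the 8 untreated libraries. COL2A1, the main collagen of cartilage, had the highest median at 77.7 RPKM (range 52.2 to 136.7). It was followed by COL6A1 (49.5), SPARC (47.5), LAMC1 (39.3), NID1 (39.2), COL6A2 (20.5), LAMB2 (19.5), COL26A1 (16.5), LAMA5 (15.6) and FBN2 (12.5). The ranges of COL6A1 (30.1 to 75.9), SPARC (6.11 to 90.7), LAMC1 (26.5 to 48.3) and NID1 overlapped one another, so that the order of these neighbours is within the spread between clones. With the length of the canonical transcript in place of all exons, 8 of these 10 genes stayed among the highest 10, and LAMB1 and COL4A5 took the places of COL26A1 and LAMA5. The lowest median was that of PXDN, at 0.00811 RPKM.

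**Figure D1:**
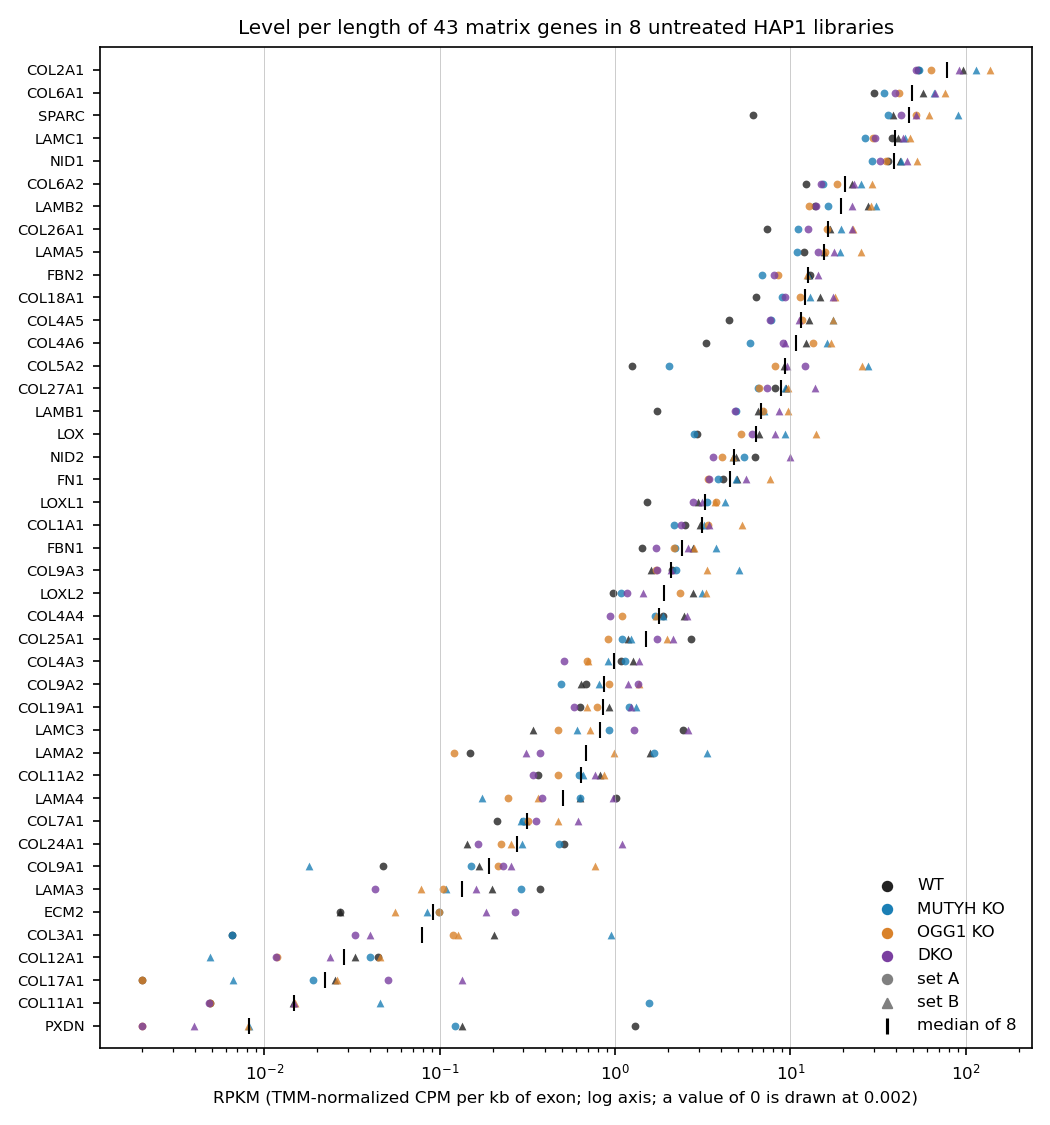
Level per length of the 43 matrix genes, with RPKM on a log axis, 1 point per untreated library coloured by genotype and a bar at the median of the 8. COL2A1 stood highest at a median of 77.7 RPKM and PXDN lowest, and SPARC, COL5A2, LAMA2, COL11A1 and PXDN had libraries far from the rest.

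The transcripts of partner chains were present unequally. Collagen IV genes lie in head-to-head pairs: COL4A1 and COL4A2 on chromosome 13, COL4A3 and COL4A4 on chromosome 2, and COL4A5 and COL4A6 on the X chromosome, with annotated gene starts 171 bases apart in the second pair and 341 in the third. The near-ubiquitous pair of most basement membranes, COL4A1 and COL4A2, had at most 9 and 10 reads in any library. By contrast COL4A5 had 1188 and 3431 in WT, 4485 and 2068 in MUTYH KO, 4588 and 3119 in OGG1 KO, 2967 and 2070 in DKO, and 1195 and 2281 in H2O2-treated WT. Its partner COL4A6 had 690 and 2552 in WT, 3236 and 1226 in MUTYH KO, 3483 and 2822 in OGG1 KO, 1934 and 1912 in DKO, and 624 and 1426 in H2O2-treated WT. Here and below, the values of a group are in the order of clones 2 and 11 (WT and treated WT), 7 and 8 (MUTYH KO), 1 and 22 (OGG1 KO) and 4 and 14 (DKO). Both genes were lowest in WT clone 2, and the treated library of that clone was as low. COL4A3 had 298 and 351 in WT, 241 and 314 in MUTYH KO, 191 and 190 in OGG1 KO, 373 and 143 in DKO, and 152 and 200 in H2O2-treated WT. COL4A4 had 499 and 661 in WT, 482 and 449 in MUTYH KO, 445 and 293 in OGG1 KO, 674 and 249 in DKO, and 312 and 395 in H2O2-treated WT. The second pair was also transcribed at a lower level (median 0.991 and 1.79 RPKM against 11.4 and 10.8 for COL4A5 and COL4A6).

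The starts of the pair with few reads and of the strongest pair differ in base composition, and are shown for that reason. RefSeq promoter windows (GRCh38.p14, 250 bases before to 50 after the start) were held for 51 of the 67 genes, in 67 windows. They are printed 5′ to 3′ on the strand of the gene, with each CG dinucleotide in capitals, for COL4A1 (chr13:110307108-110307407, minus strand), COL4A5 (chrX:108439588-108439887, plus strand) and the start of COL4A6 next to it (chrX:108439409-108439708, minus strand).
COL4A1: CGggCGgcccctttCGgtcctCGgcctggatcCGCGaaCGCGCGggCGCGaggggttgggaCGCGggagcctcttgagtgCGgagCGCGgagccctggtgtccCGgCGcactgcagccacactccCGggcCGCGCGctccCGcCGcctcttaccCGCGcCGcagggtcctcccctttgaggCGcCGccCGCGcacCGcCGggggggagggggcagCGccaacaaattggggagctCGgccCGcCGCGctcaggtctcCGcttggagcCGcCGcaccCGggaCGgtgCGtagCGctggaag
COL4A5: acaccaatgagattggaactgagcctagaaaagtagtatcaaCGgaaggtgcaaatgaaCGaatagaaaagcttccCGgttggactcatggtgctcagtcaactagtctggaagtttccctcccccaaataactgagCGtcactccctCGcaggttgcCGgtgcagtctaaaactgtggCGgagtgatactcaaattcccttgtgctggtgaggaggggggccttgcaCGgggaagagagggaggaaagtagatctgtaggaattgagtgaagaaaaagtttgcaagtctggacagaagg
COL4A6: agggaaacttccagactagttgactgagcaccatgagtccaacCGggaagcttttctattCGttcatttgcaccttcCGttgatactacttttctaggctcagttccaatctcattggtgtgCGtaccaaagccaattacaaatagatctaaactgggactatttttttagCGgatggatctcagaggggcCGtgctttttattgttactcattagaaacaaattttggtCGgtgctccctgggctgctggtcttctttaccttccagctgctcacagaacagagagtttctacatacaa
The COL4A1 window held 45 CG dinucleotides at 76.7% GC and shares 226 bases with that of COL4A2, which also held 45. The COL4A5 window held 8 at 49.3% GC and the COL4A6 window 7 at 43.7% GC, and they share 121 bases. COL4A3 and COL4A4 held 24 and 29. Over all 35116 windows of the table the median was 14 CG dinucleotides, and 56.4% held 10 or more, as did 35 of 44 windows of the described genes and 14 of 23 of the others. The motif GGGCGG, searched on both strands, was in the windows of COL4A1, COL4A2 and COL4A3. It was not in that of COL4A4 or in those shown for COL4A5 and COL4A6. Another COL4A6 window (chrX:108438373-108438672), with 5 CG dinucleotides, did hold it, and which start was used cannot be told from reads per gene. Of all windows, 44.95% held the motif.

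Among other partner chains, collagen VI needs a further chain besides COL6A1 and COL6A2, and COL6A3, COL6A5 and COL6A6 had at most 14, 0 and 4 reads. COL6A1 had 3753 and 7165 in WT, 7925 and 4242 in MUTYH KO, 9304 and 5188 in OGG1 KO, 8261 and 4924 in DKO, and 3318 and 4780 in H2O2-treated WT. COL6A2, its neighbour on chromosome 21, had 1483 and 2703 in WT, 2898 and 1836 in MUTYH KO, 3439 and 2224 in OGG1 KO, 2746 and 1818 in DKO, and 1057 and 1505 in H2O2-treated WT. Of the chains of type I collagen, COL1A1 had 438 to 1053 reads in untreated cells and COL1A2 at most 23. Of type V collagen, COL5A2 was strongly transcribed in some clones, whereas COL5A1 and COL5A3 had at most 4 and 9 reads. All 3 chains of collagen IX, which coats type II fibrils, were present: COL9A3 had 175 to 532 reads in untreated cells, COL9A2 had 47 to 129 and COL9A1 had 4 to 175.

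COL2A1 itself had 7986 and 14450 in WT, 16396 and 8131 in MUTYH KO, 20153 and 9537 in OGG1 KO, 13658 and 7892 in DKO, and 5361 and 7525 in H2O2-treated WT. The lower clones of the 4 genotypes had 7892 to 9537 reads and the higher clones 13658 to 20153. COL27A1, a fibrillar collagen of cartilage, had 2053 to 4311 reads in untreated cells, and COL11A2, which joins type II fibrils, had 57 to 141. COL18A1, whose C-terminal fragment is endostatin, had 1213 and 2817 in WT, 2379 and 1698 in MUTYH KO, 3362 and 2168 in OGG1 KO, 3299 and 1786 in DKO, and 920 and 1373 in H2O2-treated WT. COL26A1 had 511 and 1178 in WT, 1303 and 769 in MUTYH KO, 1566 and 1122 in OGG1 KO, 1548 and 882 in DKO, and 650 and 1131 in H2O2-treated WT. COL19A1 (145 to 315 reads in untreated cells), COL25A1 (179 to 531), COL7A1, the anchoring fibril collagen (53 to 153) and COL12A1 (2 to 19) were low.

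Laminin transcripts came mainly from LAMC1, LAMB1, LAMB2 and LAMA5. LAMC1, the gamma chain shared by most laminins, had 7180 and 7792 in WT, 8276 and 5057 in MUTYH KO, 9034 and 5657 in OGG1 KO, 8248 and 5830 in DKO, and 7272 and 6126 in H2O2-treated WT. LAMB2 had 2139 and 4293 in WT, 4598 and 2543 in MUTYH KO, 4403 and 1960 in OGG1 KO, 3449 and 2180 in DKO, and 1829 and 2333 in H2O2-treated WT. LAMB1 had 728 and 2742 in WT, 2830 and 2038 in MUTYH KO, 3980 and 2921 in OGG1 KO, 3554 and 2024 in DKO, and 853 and 2479 in H2O2-treated WT. It was lowest in WT clone 2 with and without H2O2. It overlaps DLD on the opposite strand, which had 2503 to 3247 reads. LAMA5 had 3843 and 5000 in WT, 5928 and 3517 in MUTYH KO, 7944 and 5048 in OGG1 KO, 5645 and 4672 in DKO, and 2682 and 2468 in H2O2-treated WT. LAMA3, an alpha chain of epithelial basement membranes, had at most 140 reads, and LAMB3 at most 3. NID1, the major nidogen, had 4714 and 5557 in WT, 5340 and 3826 in MUTYH KO, 6809 and 4607 in OGG1 KO, 6017 and 4291 in DKO, and 4171 and 3950 in H2O2-treated WT. NID2 had 512 to 1381 in untreated cells. FBN2, a fibrillin of developing microfibrils, had 5202 and 5105 in WT, 4848 and 2764 in MUTYH KO, 4931 and 3396 in OGG1 KO, 5730 and 3277 in DKO, and 4626 and 3551 in H2O2-treated WT. FBN1 had 597 to 1502 reads and FN1, fibronectin, 1313 to 2910 in untreated cells.

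Clones differed widely in a subset of the genes. Of the 41 described genes that passed the filter on low counts in the untreated libraries, 15 (36.6%) had a highest library more than 4-fold above the lowest, against 12.7% of the 17881 genes tested. Of the 15, COL3A1 and PXDN reached 50 reads in 1 untreated library only and COL12A1 and ECM2 in none. The 50-read limit lets in genes through their highest library, and the 17881 genes did not have to meet it. Nothing is therefore read from the gap between the 2 shares. The 2 that did not pass were COL11A1 and COL17A1. COL11A1, a minor fibrillar chain of cartilage, was the extreme case, with 1 and 3 in WT, 9 and 320 in MUTYH KO, 3 and 1 in OGG1 KO, 3 and 1 in DKO, and 0 and 0 in H2O2-treated WT. Its 320 reads in MUTYH KO clone 8 were 34.2 times the normalized count of clone 7 (95% exact interval for counting error 17.8 to 75.4), and no other library exceeded 9.

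SPARC, a collagen-binding glycoprotein, had 639 and 4047 in WT, 9114 and 3777 in MUTYH KO, 6315 and 5442 in OGG1 KO, 5417 and 4520 in DKO, and 762 and 3671 in H2O2-treated WT. WT clone 2, at 28.3 CPM, stood below every other untreated clone (167.4 CPM or more) and stayed low after treatment. COL5A2 had 206 and 1513 in WT, 4403 and 337 in MUTYH KO, 4133 and 1351 in OGG1 KO, 1557 and 2009 in DKO, and 260 and 979 in H2O2-treated WT. WT clone 2 and MUTYH KO clone 8 were lowest. Its neighbour COL3A1, 19151 bases away on chromosome 2, had 1 and 31 in WT, 139 and 1 in MUTYH KO, 19 and 18 in OGG1 KO, 6 and 5 in DKO, and 1 and 6 in H2O2-treated WT. It was also highest in MUTYH KO clone 7 and at 1 read in WT clone 2 and MUTYH KO clone 8. The alpha chain of muscle laminin, LAMA2, had 88 and 941 in WT, 1911 and 998 in MUTYH KO, 576 and 72 in OGG1 KO, 183 and 224 in DKO, and 74 and 827 in H2O2-treated WT. OGG1 KO clone 22 and WT clone 2 were lowest for LAMA2, and clones of WT and of OGG1 KO fell on both sides of the DKO clones.

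Other genes of this kind followed other orders. LAMA4 had 272 and 170 in WT, 45 and 171 in MUTYH KO, 96 and 66 in OGG1 KO, 259 and 104 in DKO, and 176 and 172 in H2O2-treated WT. LAMA3 had 122 and 65 in WT, 34 and 95 in MUTYH KO, 25 and 34 in OGG1 KO, 52 and 14 in DKO, and 140 and 51 in H2O2-treated WT. LAMC3 had 489 and 69 in WT, 117 and 186 in MUTYH KO, 143 and 95 in OGG1 KO, 520 and 259 in DKO, and 432 and 53 in H2O2-treated WT. It was the reverse of SPARC in that WT clone 2 was next to the top. COL24A1 had 110 and 31 in WT, 61 and 103 in MUTYH KO, 54 and 48 in OGG1 KO, 233 and 36 in DKO, and 101 and 39 in H2O2-treated WT. DKO clone 4 was highest. COL9A1 had 11 and 39 in WT, 4 and 35 in MUTYH KO, 175 and 50 in OGG1 KO, 59 and 54 in DKO, and 7 and 16 in H2O2-treated WT. OGG1 KO clone 1 was highest. LOX, the lysyl oxidase, had 370 and 833 in WT, 1126 and 354 in MUTYH KO, 1741 and 655 in OGG1 KO, 1022 and 767 in DKO, and 359 and 913 in H2O2-treated WT. WT clone 2 was the lowest of the 8 untreated libraries for 13 of the 41 genes, and OGG1 KO clone 1 the highest for 19, MUTYH KO clone 7 for 9 and DKO clone 4 for 8. The same counts were not made over all genes, so nothing particular to matrix genes is read from them.

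**Figure D2:**
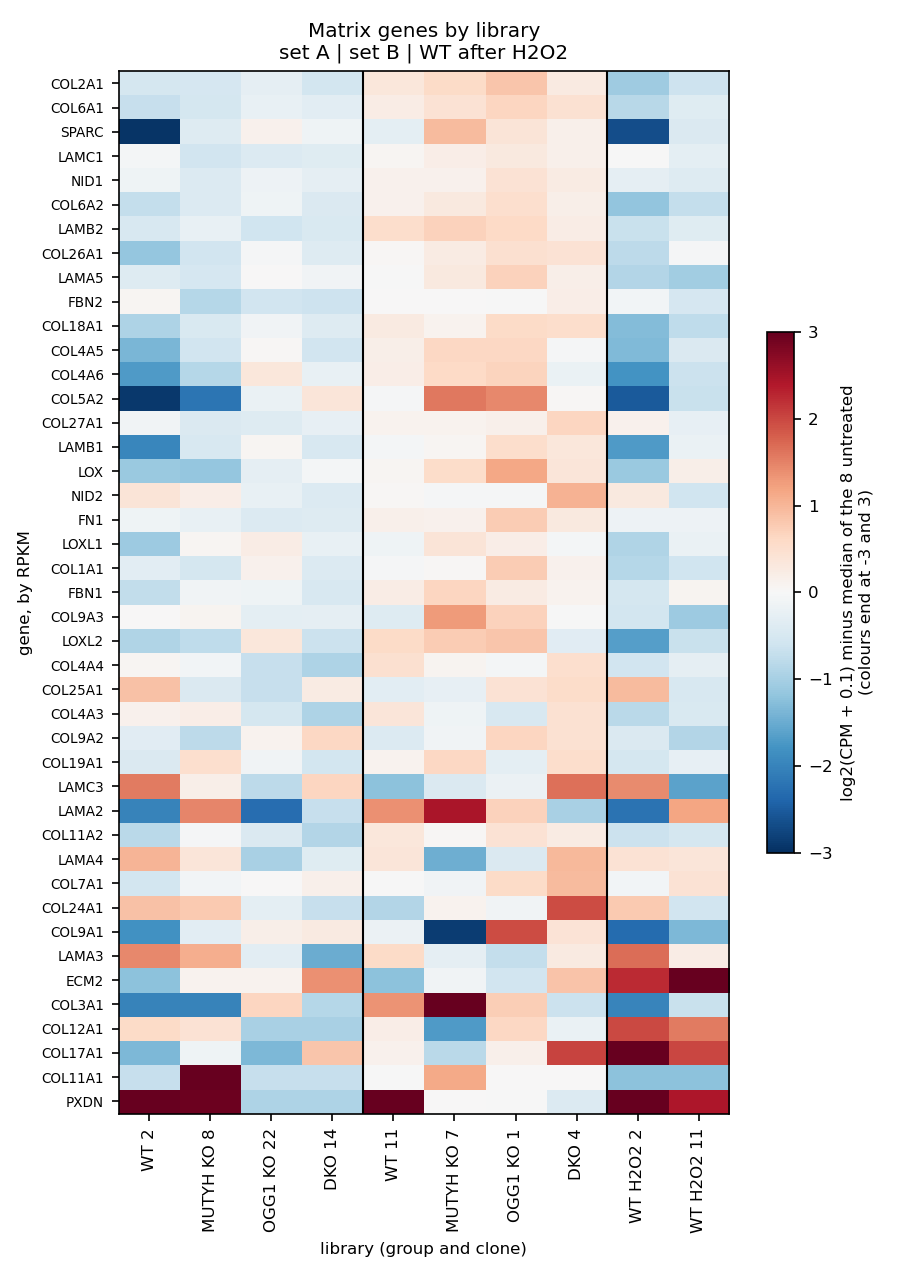
Each of the 43 genes (rows, by RPKM) in the 10 libraries (columns), as log2(CPM + 0.1) minus the median of the 8 untreated libraries, with the colour scale ending at -3 and 3. The 4 libraries of set A are left, those of set B in the middle and treated WT right; the high-level genes at the top are mostly blue in set A and red in set B, while SPARC, COL5A2 and LAMB1 are darkest blue in WT clone 2.

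The high-level matrix genes followed a split of the libraries that crosses the genotypes. On the first principal component of all tested genes (31.1% of the variance, also when the matrix genes were left out), WT clone 2, MUTYH KO clone 8, OGG1 KO clone 22 and DKO clone 14 made up one set (set A) and WT clone 11, MUTYH KO clone 7, OGG1 KO clone 1 and DKO clone 4 the other (set B). The labels name no batch for it, and since the sets come from the same data, values are given without a test. All 4 set B libraries exceeded all 4 set A libraries for 13 of the 41 genes (31.7%), against 13.8% of all genes tested, and the reverse held for 0 of the 41, against 15.4% of all genes. The 41 had to meet the 50-read limit and all genes did not, so the shares are not of like genes. Of the 5 matrix genes tested below that limit, COL23A1 went the reverse way, at a mean of 0.476 CPM in set A and 0.145 CPM in set B, and the rest overlapped. The 13 were COL2A1, COL6A1, COL6A2, COL11A2, COL18A1, COL26A1, COL27A1, LAMB2, LAMC1, NID1, FN1, FBN1 and LOX. COL18A1 overlaps SLC19A1 on the opposite strand, which was at 61.3 to 80.0 CPM in set A and 110.9 to 133.7 CPM in set B. Where counting ignored strand, reads of the 2 genes cannot be told apart in the overlap. The mean CPM of set B was between 1.39 (NID1) and 2.25 (LOX) times that of set A. COL2A1, for example, averaged 371.5 CPM in set A and 729.8 CPM in set B. The median over the 41 genes of the log2 difference between the set B and set A clone of a genotype was 0.61, and over all genes -0.014.

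**Figure D3:**
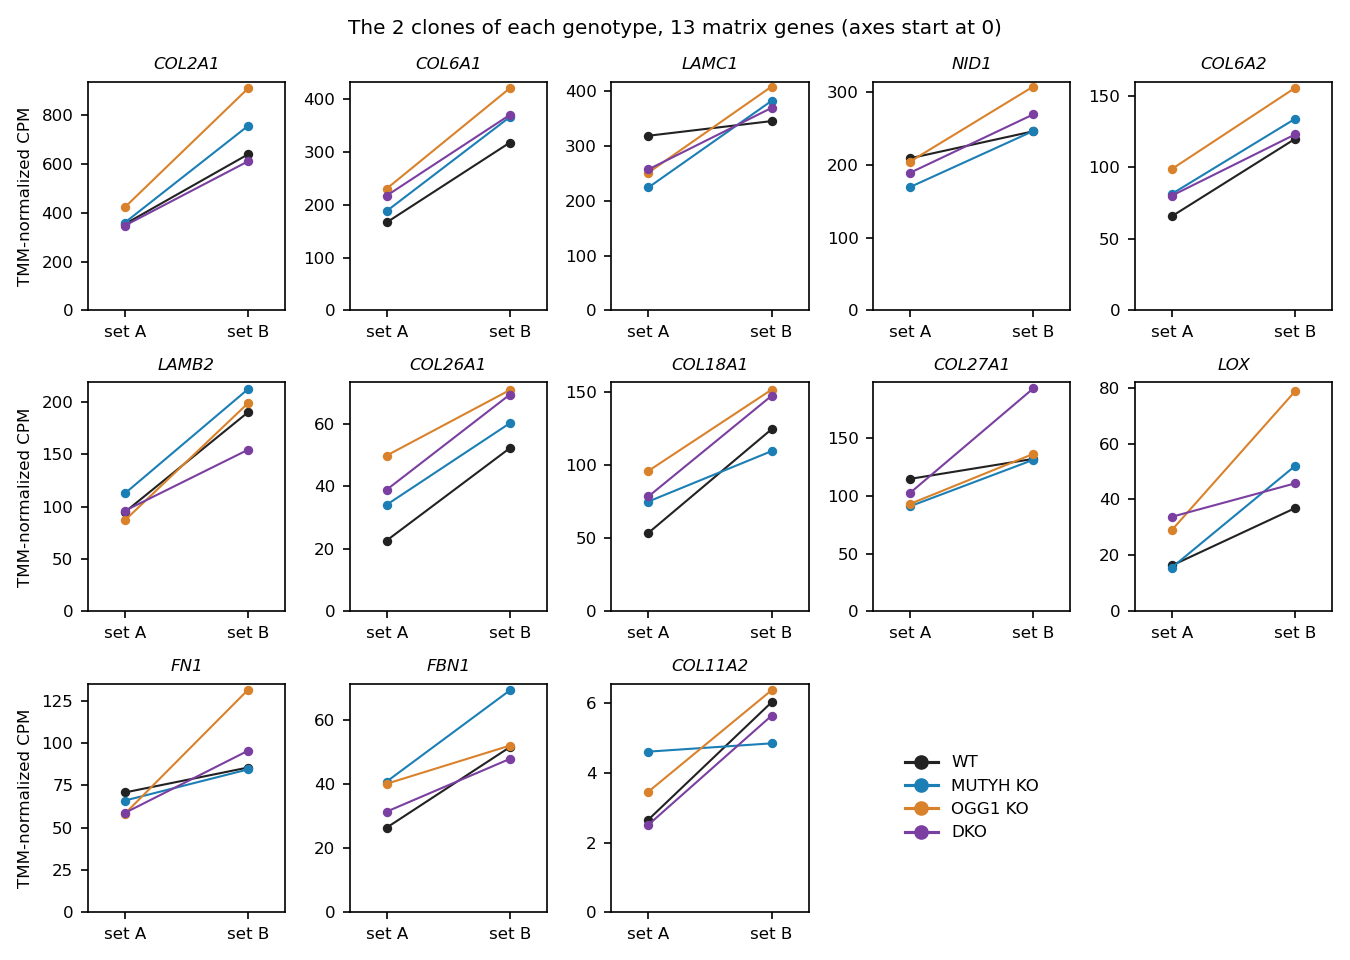
TMM-normalized CPM of the 13 genes whose set B libraries all exceeded their set A libraries, with a line joining the 2 clones of each genotype and axes from 0. Every line rises from set A to set B, by amounts that differ between genotypes, as for LAMC1 in WT (318.5 to 345.2 CPM) and in MUTYH KO (224.2 to 382.1 CPM).

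Genes that process collagen showed the same split. Of 18 listed collagen-modifying enzymes and chaperones (prolyl and lysyl hydroxylases, CRTAP, PPIB, SERPINH1, FKBP10, collagen galactosyltransferases and MIA3) 16 were tested, and set B exceeded set A without overlap for 16. The same was true of 9 of 16 matrix receptors, 2 of 5 procollagen proteinases and enhancers, 3 of 16 other matrix components and 0 of 7 matrix proteinases and inhibitors, and the reverse was true of none of these 60 genes. Of all genes tested, 13.8% had set B above set A without overlap and 15.4% the reverse. The 60 genes were among those that defined the sets, so these values too are given without a test. SERPINH1, named after its values were seen, had 3528 and 9404 in WT, 13781 and 4914 in MUTYH KO, 12520 and 6402 in OGG1 KO, 14119 and 6619 in DKO, and 4224 and 8002 in H2O2-treated WT. The share of mitochondrial reads moved with the sets, at 3.75% to 5.02% in set A and 5.14% to 7.46% in set B, and its part in these differences was not tested.

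Which matrix genes differ where the glycosylases are missing was asked in 1 model over the 8 untreated libraries. A gene was called by the criterion of the study, a log2 fold change beyond 1 with P at or under 0.05 before adjustment. PXDN was lower and ECM2 higher in all 3 knockouts, and no other described gene met the criterion against WT. PXDN reached the 50-read limit only in WT clone 2, untreated and treated, and ECM2 only in treated WT, so nothing is read from the count of genes that were lower. All 3 comparisons use the same 2 WT libraries, so these are not 3 independent results. In MUTYH KO 1 of 41 genes was higher and 1 lower, where 0.408% and 0.777% of all genes were. In OGG1 KO it was 1 and 1, against 0.811% and 0.861%, and in DKO 1 and 1, against 1.24% and 0.531%. Of the 41 genes 24, 26 and 26 had a log2 fold change above 0, against 53%, 52.6% and 50.2% of all genes. The median log2 fold changes were 0.17, 0.28 and 0.13, against 0.013, 0.015 and 0.00079 over all genes. No shift of matrix genes is read from these values. Over all 46 matrix genes tested, described or not, 3, 2 and 2 met the criterion, the further one being COL13A1 in MUTYH KO, at 12 reads or fewer. Without WT clone 11 these counts were 11, 11 and 7, of 48 then tested, and those over all genes went from 212, 299 and 317 to 702, 806 and 673. Without WT clone 2 they were 1, 1 and 3, of 49, and 117, 165 and 260 over all genes. Without MUTYH KO clone 8 the first was 8 (457 over all genes), without DKO clone 4 the last was 5 (311) and without DKO clone 14 it was 4 (351). With the library set (A or B) as a term they were 5, 8 and 4 (318, 435 and 436 over all genes). After Benjamini-Hochberg adjustment no matrix gene passed 0.05 in any of the 3 by edgeR or by the DESeq2 Wald test, whereas 2, 2 and 3 of the 41 had P at or under 0.05 before adjustment by edgeR, against 1.72%, 2.74% and 2.94% of all genes. Of all genes, 0.00559% passed the adjusted threshold in MUTYH KO, 0.0% in OGG1 KO and 0.0% in DKO.

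PXDN (peroxidasin, chromosome 2, 1631887 to 1744852, minus strand, GRCh38) had 329 and 34 in WT, 2 and 31 in MUTYH KO, 2 and 0 in OGG1 KO, 1 and 0 in DKO, and 331 and 21 in H2O2-treated WT. The 2 WT clones differed by a factor of 9.69 (95% exact interval for counting error 6.79 to 14.2), and MUTYH KO clone 8, with 31 reads, was close to WT clone 11, with 34. In OGG1 KO the summed normalized count was lower by a factor of 179.6 (95% exact interval for counting error 49.4 to 1489, on 2 reads) and in DKO by 362 (64.6 to 14340, on 1 read). The fitted log2 fold changes were -3.45 ± 1.29 (SE) in MUTYH KO (edgeR adjusted p = 1.00), -7.31 ± 1.78 in OGG1 KO (edgeR adjusted p = 0.999) and -8.17 ± 1.93 in DKO (edgeR adjusted p = 1.00). These values rest on WT clone 2, which holds 329 of the 363 WT reads, and without it they were -1.04, -4.91 and -5.77. The MUTYH KO value then no longer met the criterion, nor did it by the DESeq2 Wald test, in a fit of the 4 libraries or without MUTYH KO clone 7. The DKO clones were derived from OGG1 KO clone 22, in which PXDN was already at 0 reads, and inheritance of its level from that clone cannot be told apart from the loss of MUTYH and OGG1.

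ECM2, a secreted leucine-rich repeat protein with a von Willebrand C domain (chromosome 9, 92493554 to 92536655, minus strand, GRCh38), had 3 and 3 in WT, 9 and 11 in MUTYH KO, 6 and 11 in OGG1 KO, 20 and 30 in DKO, and 55 and 138 in H2O2-treated WT. Each knockout library was above both WT libraries, and both DKO libraries were above the other knockouts. The shared parent clone limits the DKO values of ECM2 as it does those of PXDN. Its log2 fold change against WT was 1.72 ± 0.56 (SE) in MUTYH KO (edgeR adjusted p = 1.00), 1.48 ± 0.57 in OGG1 KO (edgeR adjusted p = 0.999) and 3.01 ± 0.53 in DKO (edgeR adjusted p = 1.00). As ratios of summed normalized counts these were 3.40, 2.86 and 8.35, with 95% exact intervals for counting error of 1.32 to 10.4, 1.08 to 8.87 and 3.58 to 23.8. ECM2 was also higher in DKO than in OGG1 KO, by 1.53 ± 0.46 (edgeR adjusted p = 1.00), where it was the 1 gene of 41 to meet the criterion (1.06% of all genes were higher and 0.386% lower, and 0.0% passed after adjustment), and there it lost the criterion without OGG1 KO clone 1 (1.18) or DKO clone 14 (1.22). The MUTYH KO call was lost without either WT clone or without MUTYH KO clone 8 (1.61), and the OGG1 KO call without either WT clone or without OGG1 KO clone 22 (1.01). By the DESeq2 Wald test the criterion was not met in MUTYH KO, in OGG1 KO or in DKO against OGG1 KO. ECM2 lies within CENPP, a kinetochore gene on the opposite strand that had 345 and 355 in WT, 303 and 374 in MUTYH KO, 303 and 338 in OGG1 KO, 289 and 327 in DKO, and 353 and 317 in H2O2-treated WT. ECM2 reads cannot be told apart from antisense reads of CENPP where counting ignored strand, a setting the methods do not state.

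**Figure D4:**
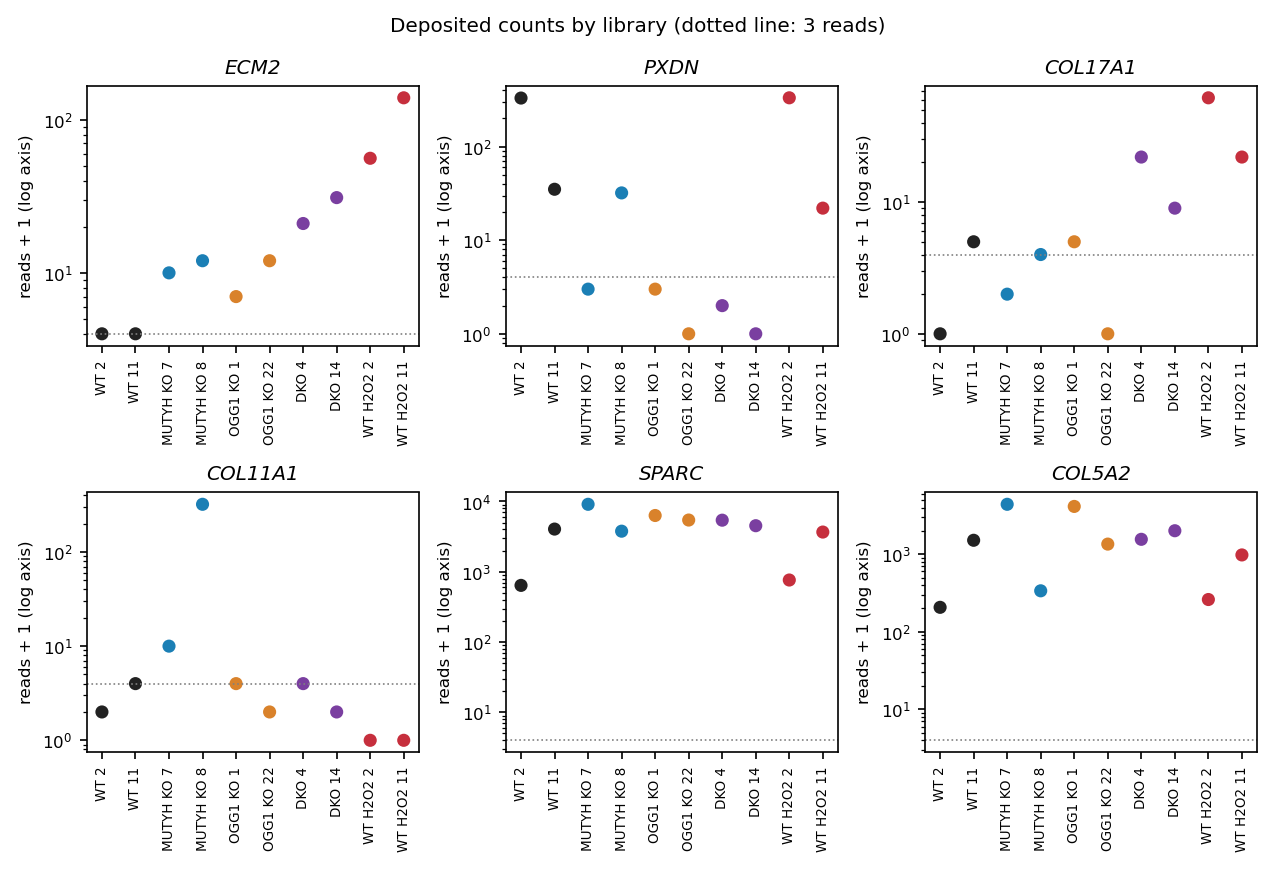
Deposited read counts plus 1 on a log axis in the 10 libraries, coloured by group, with a dotted line at 3 reads. ECM2 rose from 3 reads in each WT clone to 55 and 138 after H2O2, PXDN was at most 2 reads in OGG1 KO and DKO clones, COL17A1 was highest in treated WT clone 2 and COL11A1 in MUTYH KO clone 8, and SPARC and COL5A2 were lowest in WT clone 2.

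Of the other genes of the matrix pathway, 60 of 75 listed companions were tested between genotypes. None met the criterion in MUTYH KO, while in OGG1 KO 1 was higher and 2 lower and in DKO 1 was higher and 1 lower (of all genes, 0.811% and 0.861% in OGG1 KO and 1.24% and 0.531% in DKO). POSTN (periostin) had 3 and 31 in WT, 20 and 5 in MUTYH KO, 325 and 78 in OGG1 KO, 140 and 74 in DKO, and 6 and 33 in H2O2-treated WT. It had log2 fold changes of 3.59 ± 1.11 in OGG1 KO and 2.66 ± 1.09 in DKO. MFAP2, a microfibril protein, had 654 and 223 in WT, 246 and 7 in MUTYH KO, 7 and 4 in OGG1 KO, 56 and 5 in DKO, and 483 and 150 in H2O2-treated WT, with -6.27 ± 1.81 and -3.82 ± 1.52, and MUTYH KO clone 8 was as low as the OGG1 KO clones. CD44, the hyaluronan receptor, had 500 and 71 in WT, 25 and 85 in MUTYH KO, 13 and 10 in OGG1 KO, 298 and 17 in DKO, and 479 and 84 in H2O2-treated WT, which gave -4.60 ± 1.52 in OGG1 KO. CD44 and LTBP1 (50 and 21 in WT, 24 and 18 in MUTYH KO, 25 and 13 in OGG1 KO and 99 and 40 in DKO) were higher in DKO than in OGG1 KO, by 3.77 ± 1.49 and 1.86 ± 0.64. For CD44 this rested on DKO clone 4, with 298 reads, since clone 14 had 17. No companion or cell type marker passed adjustment by edgeR in a comparison of genotypes. The limit of the shared parent clone holds for the DKO values here too. The epithelial marker KRT8 met the criterion in OGG1 KO and DKO, with 191 and 396 in WT, 645 and 200 in MUTYH KO, 828 and 1021 in OGG1 KO and 955 and 1001 in DKO, and EPCAM in DKO, with 9 and 15 in WT, 3 and 12 in MUTYH KO, 27 and 33 in OGG1 KO and 66 and 46 in DKO. The other 3 tested of the 8 epithelial markers did not meet it, with KRT18 at 618 and 777 in WT, 722 and 1218 in OGG1 KO and 1095 and 1029 in DKO, and ESRP1 at 228 and 116, 132 and 110, and 238 and 132. CLDN7, which was not tested, had 62 and 4 in WT, 7 and 8 in OGG1 KO and 6 and 7 in DKO. CD34 met the criterion in both with 9 to 23 reads against 3 and 4 in WT. The part of these markers in the values of POSTN, MFAP2, CD44 or PXDN was not tested.

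Whether the difference between MUTYH-lacking and MUTYH-proficient cells depends on OGG1 was tested by an interaction contrast, the change from OGG1 KO to DKO minus that from WT to MUTYH KO. Of the 41 described genes 0 were higher and 1, LOXL1, was lower, where 1.41% and 0.593% of all genes were, and 0.00559% of all genes passed after adjustment. LOXL1, a lysyl oxidase of elastic fibres, had 124 and 243 in WT, 333 and 276 in MUTYH KO, 299 and 308 in OGG1 KO, 254 and 228 in DKO, and 138 and 234 in H2O2-treated WT. Its contrast was -1.10 ± 0.46 (edgeR adjusted p = 1.00), and was -0.69 and no longer called without WT clone 2, the lowest library.

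The comparison of treated with untreated WT asks which matrix genes differ 24 hours after H2O2. In the 2 WT clones, 21 of 41 tested genes (51.2%) were lower after treatment in both, against 31.4% of the 16997 genes tested, and 4 (9.76%) were higher in both, against 34.0% of all genes. Over the 41 genes the median log2 fold change was -0.28, against 0.00018 over all genes. By the study's criterion, without a block, 3 genes (ECM2, COL17A1 and COL12A1) were higher and 0 lower, where 0.741% and 1.01% of all genes were. All 3 reached the 50-read limit of the description only in treated libraries, so nothing is read from their number or from that of genes higher in both clones. None passed after adjustment by edgeR, and neither did any other gene (0.0%), whereas 8 of the 41 had P at or under 0.05 before adjustment (7.63% of all genes) and 2 matrix genes passed adjustment by the DESeq2 Wald test. The same clones were used with and without treatment. With clone as a block, 3 were higher and 2 lower by the criterion (1.19% and 1.59% of all genes), and 2 were higher and 7 lower at an adjusted p of at most 0.05 (1.18% and 1.39% of all genes). Over all 43 matrix genes tested, described or not, leaving out untreated WT clone 2 raised the count without a block from 3 to 14 (4 higher and 10 lower, of 47 then tested), and that over all genes from 298 to 497. The blocked fit has 1 residual degree of freedom for each gene, so that its error rests mostly on the spread shared across genes.

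ECM2 rose from 3 to 55 reads in clone 2 and from 3 to 138 in clone 11. Summed over clones the normalized count was 32.5 times higher (95% exact interval for counting error 14.6 to 89.5), with a log2 fold change of 4.95 ± 0.64 (edgeR adjusted p = 0.638) without the block and 4.91 ± 0.46 (edgeR adjusted p = 0.000233) with it. CENPP on the opposite strand had 345 and 355 reads before and 353 and 317 after treatment. COL17A1, a transmembrane collagen of hemidesmosomes, went from 0 to 61 reads in clone 2 and from 4 to 21 in clone 11. In clone 2 its ratio to a floor of 3 reads was 20.8, with a lower 95% exact limit for counting error of 16.4 against the 0 reads themselves. In clone 11 its ratio was 5.22 (95% exact interval for counting error 1.76 to 20.9). The log2 fold change was 4.19 ± 0.76 with the block (edgeR adjusted p = 0.0164) and 4.29 ± 1.07 without (edgeR adjusted p = 0.638), and without treated clone 2 it was 3.28 and no longer met the criterion. Outside WT, 21 and 8 reads in DKO were the highest untreated values of COL17A1, with 0 to 4 elsewhere. COL12A1, a fibril-associated collagen, went from 19 to 52 and from 14 to 40 reads, by 1.48 ± 0.36 with the block (edgeR adjusted p = 0.0521). Its call was lost in a fit of all 10 libraries, without untreated clone 11 (1.28) and without treated clone 2 (1.24). COL7A1 was higher in both clones by 0.48 and 0.45 on the log2 scale and did not meet the criterion.

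ECM2 and COL17A1 are the 2 genes that passed adjustment upwards, and their promoter windows are shown beside that of PXDN for contrast in composition, again with CG dinucleotides in capitals: ECM2 at chr9:92535941-92536240, COL17A1 at chr10:104085831-104086130 and PXDN at chr2:1744466-1744765, all on the minus strand.
ECM2: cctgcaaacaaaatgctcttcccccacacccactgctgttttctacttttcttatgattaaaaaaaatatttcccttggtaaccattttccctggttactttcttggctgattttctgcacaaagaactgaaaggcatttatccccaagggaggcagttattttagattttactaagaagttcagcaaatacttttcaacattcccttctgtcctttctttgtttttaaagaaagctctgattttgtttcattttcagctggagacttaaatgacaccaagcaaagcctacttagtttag
COL17A1: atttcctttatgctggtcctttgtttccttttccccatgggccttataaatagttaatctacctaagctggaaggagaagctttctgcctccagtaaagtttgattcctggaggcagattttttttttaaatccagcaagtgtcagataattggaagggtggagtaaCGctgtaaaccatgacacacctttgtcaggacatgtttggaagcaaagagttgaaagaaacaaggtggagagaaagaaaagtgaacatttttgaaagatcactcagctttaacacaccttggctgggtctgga
PXDN: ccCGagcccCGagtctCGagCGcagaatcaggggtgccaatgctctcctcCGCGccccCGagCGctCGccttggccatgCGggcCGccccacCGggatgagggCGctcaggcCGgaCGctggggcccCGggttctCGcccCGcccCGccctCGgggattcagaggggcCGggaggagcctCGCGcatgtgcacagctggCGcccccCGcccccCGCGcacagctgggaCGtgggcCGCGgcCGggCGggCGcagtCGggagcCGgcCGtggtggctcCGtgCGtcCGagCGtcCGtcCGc
The ECM2 window held 0 CG dinucleotides at 36.3% GC and that of COL17A1 held 1 at 40.7% GC, while the PXDN window held 42 at 78.3% GC. Among the described genes no other window held fewer than 3. The annotated gene starts of ECM2 (92536655) and PXDN (1744852) lie outside the windows shown. Which start was used cannot be told from reads per gene. The window of COL12A1, also called higher after H2O2, held 29 at 63.3% GC. That of COL7A1, higher in both clones but not called, held 17 at 62.3% GC. A low CG content was thus not shared by the genes that were higher after H2O2. The motif TATAAA, on either strand, occurred in the COL17A1 window and in neither the ECM2 nor the PXDN window, and 11.5% of all windows held it.

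The 7 genes that passed adjustment downwards with the block were COL2A1, COL4A3, COL4A4, COL6A2, COL18A1, LAMA5 and LOXL2. COL2A1 fell by 0.75 ± 0.14 on the log2 scale (edgeR adjusted p = 0.0157), from 7986 to 5361 reads in clone 2 and from 14450 to 7525 in clone 11. LAMA5 fell by 0.76 ± 0.14 (edgeR adjusted p = 0.019), from 3843 to 2682 and from 5000 to 2468 reads. The pair COL4A3 and COL4A4 fell by 0.88 ± 0.18 and 0.71 ± 0.15 (edgeR adjusted p = 0.0279 and 0.0318), with similar size in the clones (-0.93 and -0.81 for COL4A3, -0.64 and -0.75 for COL4A4). The stronger pair COL4A5 and COL4A6 differed by 0.044 and -0.11 in clone 2 and by -0.60 and -0.85 in clone 11 and did not pass. COL6A2 fell by 0.66 ± 0.14 (edgeR adjusted p = 0.0264) and COL18A1 by 0.72 ± 0.16 (edgeR adjusted p = 0.033). SLC19A1, opposite COL18A1, had 1803 and 2503 reads before and 1861 and 1768 after treatment. ADRM1, which overlaps LAMA5 on the opposite strand, had 2335 and 2219 before and 2914 and 2706 after. The strand limit given for ECM2 holds for COL18A1 and LAMA5 too. LOXL2, a lysyl oxidase-like enzyme that acts on collagen IV, fell by 1.05 ± 0.22 (edgeR adjusted p = 0.0279) and had 132 and 373 in WT, 406 and 145 in MUTYH KO, 437 and 316 in OGG1 KO, 192 and 159 in DKO, and 76 and 156 in H2O2-treated WT. COL9A1 met the criterion with the block at -1.06 ± 0.45 (edgeR adjusted p = 0.216).

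The values of SPARC, LAMB1, COL5A2 and FBN1 were higher after treatment in clone 2 and lower in clone 11. In all, 16 of the 41 genes differed in opposite directions in the clones. Of all genes tested, 31.4% were lower in both clones and 34.0% higher in both, and the rest were neither. Nothing particular to matrix genes is therefore read from the 16.

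**Figure D5:**
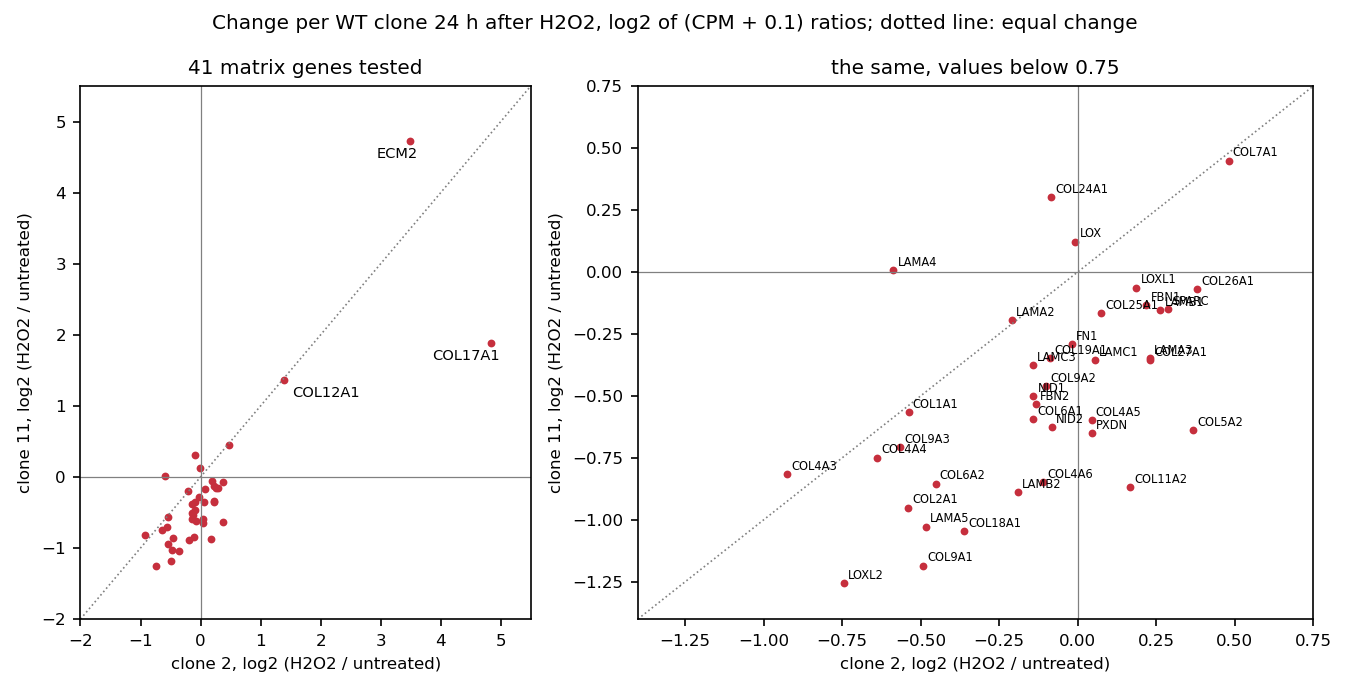
Log2 ratio of (CPM + 0.1) after and before H2O2 in WT clone 2 (x axis) and clone 11 (y axis) for the 41 tested genes, in full range left and below 0.75 right, with a dotted line of equal change. ECM2, COL17A1 and COL12A1 lie far above 0 in both clones, and the gene lowest in clone 11 is LOXL2 (-0.74 in clone 2 and -1.25 in clone 11).

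Among the companions 58 were tested after H2O2. DDR2, a receptor tyrosine kinase for fibrillar collagen, was higher, with 88 and 91 reads before and 211 and 271 after (log2 fold change 1.42 ± 0.22 with the block, edgeR adjusted p = 0.00621), and EFEMP2, a fibulin needed for elastic fibres, was lower, with 32 and 18 reads before and 6 and 12 after (-1.43 ± 0.51 with the block, edgeR adjusted p = 0.148). In both clones 32 of the 58 companions were lower and 9 higher, and of the 16 collagen-modifying enzymes and chaperones 10 were lower and 0 higher, against 31.4% lower and 34.0% higher of all genes. The mitochondrial share was 5.02% and 5.14% in the untreated and 3.38% and 2.995% in the treated WT libraries, and its part in these differences was not tested.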

How the data were processed

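RNA-seq was measured in 10 libraries of HAP1 clones. Per the methods of the study and the labels, the authors aligned reads to GRCh38 with HISAT2 2.2.1 and counted them per gene with featureCounts, and the deposited values are whole-number counts, not normalized. Strand and multi-mapping settings are not stated. Untreated WT columns of the treatment table were identical to those of the genotype table and were used once. Groups came from the labels, with 2 clones a group, and all per-sample columns matched a sample.

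Counts were normalized by TMM and tested in edgeR 4.0.16 (R 4.3.3) with filterByExpr, legacy quasi-likelihood F tests, two-sided, and Benjamini-Hochberg adjustment over all genes. The genotype fit tested 17881 genes (4 residual degrees of freedom) and the treatment fit 16997 (2, or 1 with clone as block). SE came from the F statistic. P-values measure the spread between 2 clones a group. Both DKO clones come from the same OGG1 KO clone, while the fit treats all clones as independent. In every comparison that uses DKO, inheritance from that clone cannot be told apart from the loss of the glycosylases. The WT clone numbers pair treated with untreated libraries, since they are the same clones (Pearson r = 0.681 across 16997 genes for the clone differences). Alternatives were DESeq2 1.42.0, other filters, scalings, library subsets and terms. The tests were tested on simulated data. RPKM used exon lengths of GENCODE v44, another release than that used for counting. At the depth of 22225091 to 22674964 counts per library, intervals and floors cover counting error only. Values for every library are given for genes called in a comparison, passing adjustment with the block, varying over 4-fold with 50 reads or more, or among the 10 highest by RPKM, and the other described genes are given by range. The genes and companion lists were chosen with earlier results of these data known. The result for 1 gene of the list is not reported here.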

Additional observations from a re-analysis of the deposited data

Results flagged for a closer look

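Members of the matrix list whose interaction contrast met the criterion of the study (the change from OGG1 KO to DKO minus that from WT to MUTYH KO, tested by edgeR over 17881 genes) were LOXL1 and COL13A1, of 46 tested, and neither passed adjustment. For LOXL1 the contrast was -1.10 ± 0.46 (edgeR adjusted p = 1.00), with a log2 fold change of 0.76 in MUTYH KO against WT and of -0.34 in DKO against OGG1 KO. COL13A1, a transmembrane collagen with at most 12 reads in any library and so outside the described genes, had a contrast of 3.34 ± 1.33 (edgeR adjusted p = 1.00), with 10 and 12 reads in WT, 0 and 4 in MUTYH KO, 2 and 6 in OGG1 KO and 6 and 10 in DKO. Of all genes, 1.41% and 0.593% met the criterion upwards and downwards. The counts of matrix genes given below with a library left out have no count over all genes beside them. Nothing particular to matrix genes is read from those counts. COL13A1 was no longer called in 7 of the 13 alternatives that gave a value, without either WT clone among them, and LOXL1 in 7 of 14, with -0.69 without WT clone 2. Without WT clone 11, 10 matrix genes met the interaction criterion in place of 2, without WT clone 2 it was 0, without MUTYH KO clone 8 it was 6, without DKO clone 14 it was 5, and without OGG1 KO clone 1 or DKO clone 4 it was 1.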

How the results depend on the processing

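Counts are of all matrix genes tested, described or not. The counts over all genes are not set beside them here, so nothing particular to matrix genes is read from how they change. With no filter on low counts, the criterion was met by 6 genes in MUTYH KO, 6 in OGG1 KO, 5 in DKO, 5 in DKO against OGG1 KO and 6 in the interaction, in place of 3, 2, 2, 1 and 2. With at least 10 counts in every library they were 0, 1, 0, 0 and 0, and 1 after H2O2 in place of 3, fewer genes being tested. With the library set as a term they were 5, 8, 4, 3 and 7. The DESeq2 Wald test gave 0 in MUTYH KO, 4 in OGG1 KO and 4 in the interaction, and edgeR 4 gave 4 in OGG1 KO. A fit of the 4 libraries of a comparison gave 0 in MUTYH KO, 4 in OGG1 KO and 4 in DKO against OGG1 KO. With clone as a replicate block, 5 matrix genes met the criterion after H2O2 in place of 3, and 9 passed adjustment in place of 0. No paired analysis was possible between genotypes because they share no clone number. The causes were not tested.

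Leaving out 1 library at a time gave 1 to 11 genes in MUTYH KO, 1 to 11 in OGG1 KO, 3 to 7 in DKO, 1 to 2 in DKO against OGG1 KO, 0 to 10 in the interaction and 2 to 14 after H2O2, with the extremes of the 5 results that involve WT all reached without a WT clone. The counts over all genes are not set beside these ranges, so nothing particular to matrix genes is read from them. A lone library left in a group is assumed to vary like the other groups. No log2 fold change of a called gene reversed under any alternative that could be fitted. PXDN in OGG1 KO and DKO, and ECM2 in DKO and after H2O2, stayed past the criterion in each of 10 alternatives, with an adjusted p of 0.168 to 1.00 for the 3 genotype results and of 6.76e-05 to 0.92 for ECM2 after H2O2. PXDN is described only through WT clone 2, untreated and treated, and ECM2 only through treated WT. The PXDN results, and that of ECM2 after H2O2, are therefore no independent support for a difference. By library size alone, without TMM, 15 matrix genes also varied over 4-fold. The canonical-transcript length was chosen after seeing the data. Depth limits ECM2, COL17A1, PXDN and COL13A1, whose lower groups hold few reads.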
